A study of Zea mays with 6 samples.

Results

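In young maize tassels, 241 of 39305 genes were high in a single wildtype pool. Each had at least 50 normalized counts in wildtype pool 2 and at least 2 times the largest value of the other 5 pools. MicroRNA entries, none of which met these conditions, and 1 further gene were left out. A normalized count is a read count that the authors divided by a size factor for its library. The genes were chosen on these values, so the height of wildtype pool 2 is a description here, with no test, of variation within the wildtype group and not an effect of genotype.

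The tassel is the male inflorescence of maize, and its meristems make branches, spikelet pairs, spikelets and florets in turn. Jasmonate is a hormone made from membrane lipids by 13-lipoxygenases, allene oxide synthase and allene oxide cyclase in the plastid and by OPR reductases in the peroxisome. In the maize tassel it is known for the abortion of pistils, which leaves the florets male, and in many plants it is also made on wounding. Its signal is carried by MYC2-type bHLH factors, which JAZ proteins of the TIFY family hold back.

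The study measured messenger RNA in tassels of 2 to 4 mm from greenhouse-grown plants of the inbred line B73. The 3 Bif1;Bif4 libraries are called mutant pools here. They came from double heterozygotes of the dominant alleles Bif1 and Bif4, which alter Aux/IAA proteins, the repressors of the auxin response, with 10 tassels pooled per library. The 3 wildtype libraries had 5 tassels pooled each. No treatment is named, and the labels do not say whether the pools were grown or harvested apart, so a p-value here reflects pool-to-pool spread, which may be technical.

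The files held 24636859 reads for wildtype pool 2, 23066609 to 23431863 for the mutant pools, and 21047225 and 21631540 for wildtype pools 1 and 3. Where a gene has no read, up to 3 reads remain possible, worth 2.75 to 3.30 normalized counts across the libraries. This floor and the counting intervals given here cover counting error only.

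The same conditions applied to each pool in turn set wildtype pool 2 apart from the other 5. Against its 241 genes, 30, 52 and 6 genes were high only in mutant pools 1, 2 and 3, and 4 and 7 were high only in wildtype pools 1 and 3. In the opposite direction, 22 genes were low only in wildtype pool 2, against 8, 6 and 1 in the mutant pools and 7 and 23 in wildtype pools 1 and 3. At a ratio of at least 4, 49 genes were high only in wildtype pool 2 and 11 only in mutant pool 2, with none in the other 4 pools.

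**Figure D1:**
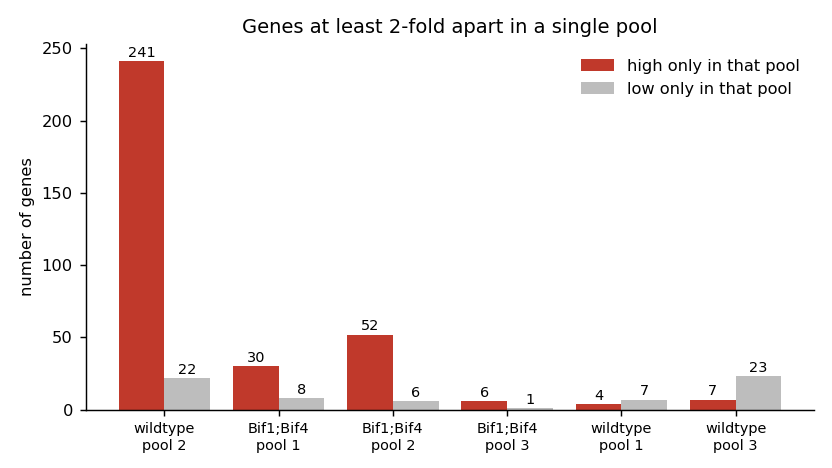
Number of genes (vertical axis) at least 2-fold above (red) or below (grey) all other pools, for each pool on the horizontal axis. Wildtype pool 2 has 241 genes high in it alone, against at most 52 in any other pool.

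The 241 genes made up 1.29% of the 18649 genes with at least 50 normalized counts in wildtype pool 2, a share that the choice itself sets. Their reads took 0.952% of all reads in wildtype pool 2, against 0.168%, 0.184% and 0.239% in mutant pools 1 to 3 and 0.262% and 0.234% in wildtype pools 1 and 3. The median gene had 223 normalized counts in wildtype pool 2. It had 36.9, 37.7 and 47.0 in the mutant pools and 56.2 and 51.6 in wildtype pools 1 and 3. The genes were thus mostly present in the other pools too, and 176 of them had at least 10 normalized counts in every other pool, while 13 had a value of 0 in at least 1 of them.

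**Figure D2:**
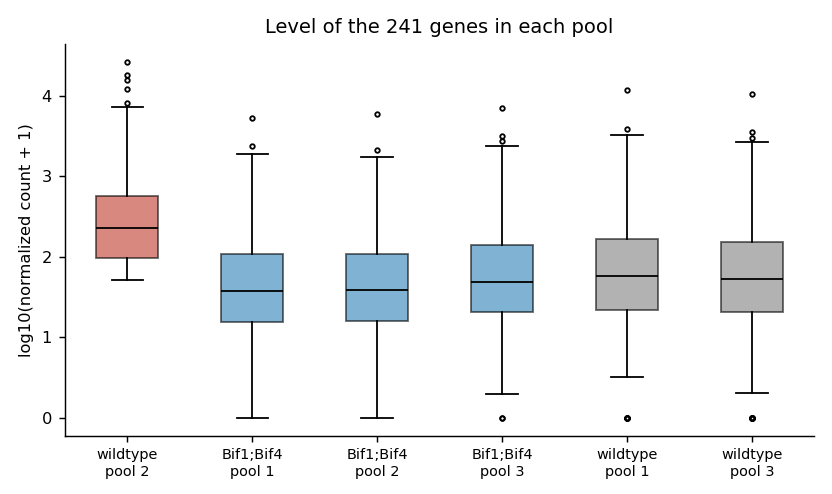
Levels of the 241 genes as log10(normalized count + 1) in each pool. Boxes run between the quartiles with the median as a line, whiskers reach at most 1.5 box lengths and points lie beyond them. The box of wildtype pool 2 lies above those of the other 5 pools, with medians of 223 against 36.9 to 56.2 normalized counts.

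Among themselves the genes varied widely in level and in how far they stood apart. Levels in wildtype pool 2 ran from 50.3 to 26275 normalized counts, with 42 genes at 1000 or more and 4 at 10000 or more. The ratio to the next highest pool had a median of 2.59 and a highest value of 15.1. It was at least 3 for 88 genes, at least 5 for 33 and at least 10 for 10. The exact 95% counting interval of the ratio lay above 1.5 for 215 genes and above 2 for 133. Such intervals, here and for single genes, do not allow for the choice of the genes on this same ratio. They are a description and no support for it. The 3 genes just inside the ratio limit had 2.00, 2.01 and 2.01, and the 3 just outside had 1.99 each. The 3 just inside the level limit had 50.3, 52.2 and 52.2 normalized counts, and the 3 just outside had 49.4 each.

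The most abundant gene and the gene that stood furthest apart both lack a name. GRMZM5G851266 had 26275 normalized counts in wildtype pool 2, 5334, 5967 and 6987 in the mutant pools, and 11747 and 10611 in wildtype pools 1 and 3. GRMZM2G060319 had 133 normalized counts in wildtype pool 2, 1.94, 0.993 and 3.91 in the mutant pools, and 8.81 and 5.16 in wildtype pools 1 and 3, a ratio of 15.1 with a counting interval of 7.45 to 35.6. In all, 48 of the 241 genes have an informative name and 193 have none, so the functions described here cover only the genes with names.

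A list of lipoxygenases and of jasmonate synthesis and signalling genes gave 4 of the named genes, out of 29 of its genes with at least 50 normalized counts in wildtype pool 2. That is 13.8%, beside 2.69% of all 1787 named genes at this level. Some shorter lists had larger shares. The lipid, wax and cutin list gave 1 of 4 genes (25%), sugar 2 of 9 (22.2%) and terpene synthases 2 of 11 (18.2%). Not all lipoxygenases of the jasmonate list serve jasmonate, since 9-lipoxygenases such as lox3, lox4 and lox5 make other lipid products. The lipoxygenase gene lox1 had 15726 normalized counts in wildtype pool 2, 1885, 1714 and 2309.8 in the mutant pools, and 3229 and 2987 in wildtype pools 1 and 3. The 9-lipoxygenase gene lox3 had 933 in wildtype pool 2, 248, 278 and 346 in the mutant pools, and 459 and 379.6 in wildtype pools 1 and 3. For both genes the mutant pools lay below the other 2 wildtype pools.

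In jasmonate synthesis itself, the allene oxide synthase gene aos2 had 2082 normalized counts in wildtype pool 2, 578, 578 and 738 in the mutant pools, and 739 and 689 in wildtype pools 1 and 3. On the signalling side, TIFY15 had 2793 in wildtype pool 2, 326, 362 and 284 in the mutant pools, and 892 and 636 in wildtype pools 1 and 3. MYC2a, named after the Arabidopsis bHLH factor of the jasmonate response and counted outside this list, sat at the ratio limit. It had 1427 in wildtype pool 2, 449, 713 and 526 in the mutant pools, and 623 and 549 in wildtype pools 1 and 3. The pools other than wildtype pool 2 overlapped between genotypes for aos2 and MYC2a and did not overlap for TIFY15.

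Most of that list did not stand apart in wildtype pool 2. The median ratio of its 29 genes was 1.04. Wildtype pool 2 was the highest of the 6 pools for 58.6% of them, against 27.1% of all named genes and 22.8% of all genes. This share was 60% in the NAC list, 55.6% for sugar, 54.5% for defence and terpene synthases and 53.8% for auxin. It was at most 50% in the other lists with genes of at least 50 normalized counts in that pool. Just short of the limit in the jasmonate list were aos1 (ratio 1.96), lox6 (1.86), lox5 (1.75), TIFY1 (1.66) and the allene oxide cyclase gene aoc2 (1.51). The 9-lipoxygenase gene lox5 was abundant throughout, with 11191 normalized counts in wildtype pool 2, 3299, 5102 and 6393 in the mutant pools, and 3055 and 1944 in wildtype pools 1 and 3. At the other end, the ratio was 0.26 for TIFY4 and 0.43 for ts1 (tasselseed1), a 13-lipoxygenase gene needed for pistil abortion. This gene had 212 normalized counts in wildtype pool 2, 356, 499 and 173 in the mutant pools, and 122 and 64.0 in wildtype pools 1 and 3. It was thus the highest in pool 2 among the wildtype pools, and lower there than in mutant pools 1 and 2.

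**Figure D3:**
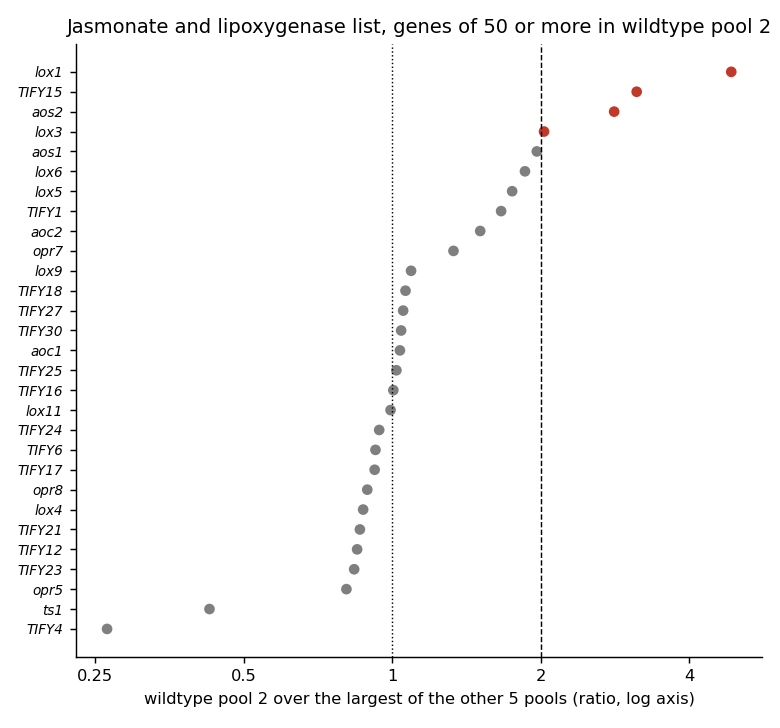
Ratio of wildtype pool 2 to the largest of the other 5 pools (horizontal log axis) for the 29 genes of the jasmonate and lipoxygenase list with at least 50 normalized counts in wildtype pool 2. Red points are the 4 genes at or above the dashed line at 2, led by lox1 at 4.87, and most grey points lie near the dotted line at 1.

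Genes of sex determination, floral organs and meristems were also present. The floral and meristem list gave 5 of 53 genes (9.43%), namely DL1, yab14, yab9, bd1 and zmm8, and gt1, ts2 and SRS7 are described with them although that list does not hold them. Most of that list did not stand apart either, with a median ratio of 0.93. Just short of the limit were yab10 (ratio 1.97), YAB5 (1.95), sbp18 (1.88) and yabby15 (1.73). At the other end were AGAMOUS (0.20), MADS34 (0.22), m19 (0.23) and ub3 (0.24). The homeodomain gene gt1 (grassy tillers1), which holds back lateral buds and carpels, had 286 normalized counts in wildtype pool 2, 22.3, 2.98 and 29.4 in the mutant pools, and 27.5 and 10.3 in wildtype pools 1 and 3. Its ratio of 9.73 was the highest among named genes. The short-chain dehydrogenase gene ts2 (tasselseed2), needed for pistil abortion, had 257 in wildtype pool 2, 42.8, 19.9 and 49.9 in the mutant pools, and 78.2 and 81.5 in wildtype pools 1 and 3. For both gt1 and ts2 wildtype pool 2 lay above all other pools, which the choice of the genes required.

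DL1, named after the rice gene drooping leaf, a YABBY gene of carpels and leaf midribs, had 732 normalized counts in wildtype pool 2, 16.5, 20.9 and 20.5 in the mutant pools, and 161 and 86.6 in wildtype pools 1 and 3. The YABBY genes, which encode transcription factors of lateral organs, also gave yab14, with 466 in wildtype pool 2, 12.6, 37.7 and 15.7 in the mutant pools, and 95.8 and 41.3 in wildtype pools 1 and 3. The third, yab9, had 279 in wildtype pool 2, 29.2, 47.7 and 15.7 in the mutant pools, and 120.0 and 107 in wildtype pools 1 and 3. In all 3 YABBY genes wildtype pools 1 and 3 also lay above every Bif1;Bif4 pool. The same held for 42.7% of the chosen genes high enough to test without wildtype pool 2, and for 19.9% of all genes so tested.

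The AP2/ERF gene bd1 (branched silkless1), which gives spikelet meristems their identity, had 114 normalized counts in wildtype pool 2, 0, 0 and 0.978 in the mutant pools, and 31.9 and 16.5 in wildtype pools 1 and 3. All 3 mutant pools were under the floor of 3 reads. SRS7, of the SHI-related family, had 324 in wildtype pool 2, 70.0, 39.7 and 53.8 in the mutant pools, and 153 and 134 in wildtype pools 1 and 3. The SEPALLATA-type MADS-box gene zmm8 had 263 in wildtype pool 2, 94.3, 80.5 and 109 in the mutant pools, and 69.4 and 56.7 in wildtype pools 1 and 3. Outside wildtype pool 2, zmm8 was thus higher in the mutant pools, unlike bd1 and SRS7.

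Transcription factor families gave a few members each. The AP2/ERF and ethylene list gave 3 of 22 genes (13.6%), close to the share of the jasmonate and lipoxygenase list, among them EREB202, with 1731 normalized counts in wildtype pool 2, 413, 639.6 and 736 in the mutant pools, and 447 and 462 in wildtype pools 1 and 3. EREB93 had 228 in wildtype pool 2, 29.2, 22.8 and 16.6 in the mutant pools, and 85.9 and 77.4 in wildtype pools 1 and 3. The MYB list gave 2 of 27 genes (7.41%), MYB-IF35 and MYB64, with ratios of 2.31 and 2.23. WRKY45 was the only member among 10 WRKY genes (10.0%, ratio 2.19), and Hsf05, a heat shock factor gene, had a ratio of 2.15. This Hsf05 gene had 116 normalized counts in wildtype pool 2. Another gene of the same name had 2197 there and a ratio of 1.05. No gene was a member among 11 of the defence protein list, 10 NAC, 27 other bHLH, 13 calcium or 30 abscisic acid genes.

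Enzymes of sugars, cell walls and small molecules were also among the named genes. The cell wall invertase gene mn1 (miniature1) had 94.3 normalized counts in wildtype pool 2, 9.72, 5.96 and 13.7 in the mutant pools, and 13.2 and 7.22 in wildtype pools 1 and 3. The expansin gene expa1, for a protein that loosens cell walls, had 97.9 in wildtype pool 2, 6.80, 11.9 and 9.78 in the mutant pools, and 15.4 and 12.4 in wildtype pools 1 and 3. Both were low in all other pools. The cellulase gene Cel20 had 99.8 in wildtype pool 2, 3.89, 2.98 and 1.96 in the mutant pools, which is 4, 3 and 2 reads, and 28.6 and 36.1 in wildtype pools 1 and 3.

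The polyamine oxidase gene mpao1 had 2398 normalized counts in wildtype pool 2, 30.1, 35.8 and 20.5 in the mutant pools, and 593 and 332 in wildtype pools 1 and 3. It differed both between wildtype pool 2 and the other wildtype pools and between those and the mutant pools. The cytochrome P450 gene CYP78A53 had 2661 in wildtype pool 2, 398, 231 and 379 in the mutant pools, and 412 and 406 in wildtype pools 1 and 3. The malate synthase gene mas1, of the glyoxylate cycle, had 239.8 in wildtype pool 2, 32.1, 8.94 and 35.2 in the mutant pools, and 7.71 and 7.22 in wildtype pools 1 and 3. For CYP78A53 the other 5 pools all lay between 231 and 412, while for mas1 the mutant pools were the higher of these 5.

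The glutathione transferase gene GST25 (ratio 8.21), the ABC transporter gene mrpa1 (5.61), the ent-kaurene synthase gene eks1 of gibberellin synthesis (4.43), the lipid transfer protein gene plt1 (3.65), the alkaline alpha-galactosidase gene AGA1 (3.51) and the Aux/IAA gene IAA12 (3.41) also stood apart. The aquaporin genes PIP1-1 and PIP2-2, for water channels of the plasma membrane, reached 3109 and 1767 normalized counts in wildtype pool 2, with ratios of 2.42 and 2.39. The lysine breakdown gene lkrsdh1 had 3271 in wildtype pool 2, 1296, 1222 and 1585 in the mutant pools, and 942 and 820.1 in wildtype pools 1 and 3. The protochlorophyllide reductase gene pcr1, of chlorophyll synthesis, had 214 in wildtype pool 2, 106, 53.6 and 92.9 in the mutant pools, and 9.91 and 10.3 in wildtype pools 1 and 3. For lkrsdh1 and pcr1 the mutant pools thus lay between wildtype pool 2 and the other wildtype pools. The remaining named genes, ZAR1, kin1, sig6, TPS9, por, MED26.15, sm2, AUX10, Fes1B, CCD8, EREB156, OFP24 and MTD1, had ratios of at most 4.79. Another gene named TPS9 was not a member, with a ratio of 1.49.

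**Figure D4:**
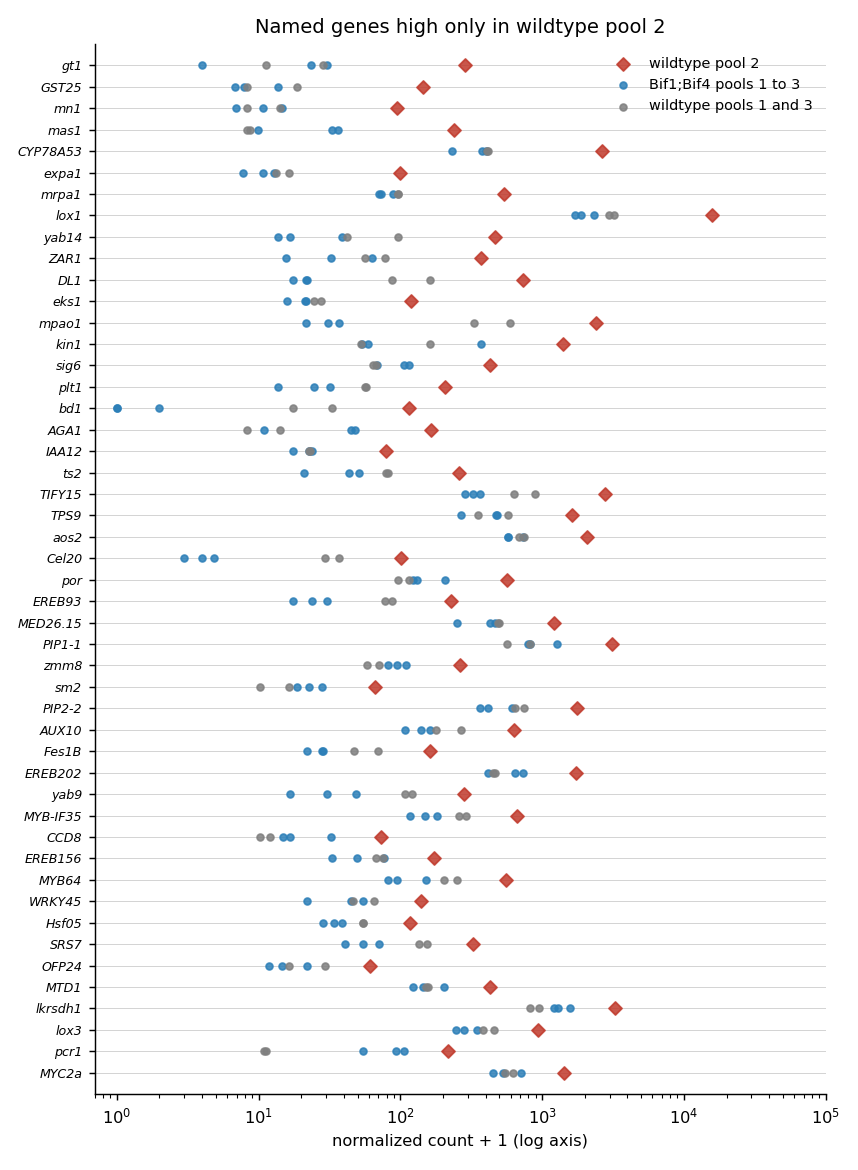
Normalized count + 1 (horizontal log axis) of the 48 named genes in wildtype pool 2 (red diamonds), the mutant pools (blue) and wildtype pools 1 and 3 (grey), in order of ratio from gt1 at 9.73 to MYC2a at 2.00. For mpao1, DL1, bd1 and Cel20 the grey points lie well above the blue ones, and for pcr1 below them.

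Sums of marker genes for other tissues were set beside these values, since a pool could hold more of 1 tissue. In such pooled tissue, more cells of a type and more RNA per cell cannot be told apart. The leaf blade list held 18 genes, of which 1 was at 0 in all pools. Only Pep1, lhcb5, C4ppdkZm1, cp29, ME1 and psat1 passed the level limit in wildtype pool 2, and none of these was a member. The others lay under that limit and could not be members whatever their ratio. The summed level of all 18 genes was 2515 normalized counts in wildtype pool 2. It was 2495 to 2918 in the mutant pools, and 2167 and 2389 in wildtype pools 1 and 3. The epidermal sum was 6893 in wildtype pool 2, 5508 to 5895 in the mutant pools, and 7116 and 6104 in wildtype pools 1 and 3. The sum of 10 young tassel genes was 18048 in wildtype pool 2, 18228 to 22064 in the mutant pools, and 20958 and 22294 in wildtype pools 1 and 3, while the floral gene zag1 was below 10 in every pool. Wildtype pool 2 thus lay inside the range of the other pools for the leaf blade and epidermis sums and just below it for the young tassel sum. Single genes of each sum differed in direction. Of the leaf blade list, rbcS (ratio 1.91) and cp29 (1.24) were highest in wildtype pool 2, while C4ppdkZm1 (0.28) and lhcb5 (0.69) were not. Of the epidermal list, gl1 was highest there (ratio 2.37, at 36.6 normalized counts), while ocl1 (0.81) was not. The young tassel genes differed too. The branching gene ub3 had 1898 in wildtype pool 2, 6022 to 7896 in the mutant pools, and 3441 and 4373 in wildtype pools 1 and 3, and ub2 was also lowest in wildtype pool 2, while bd1, KIN5 and zap1 were highest there with ratios of 3.58, 1.45 and 1.09. The secondary wall gene CesA12 was highest in wildtype pool 2, at 43.0, against 24.3 to 30.8 in the mutant pools and 9.91 and 8.25 in wildtype pools 1 and 3. Of anther and tapetum markers, ocl4 and ms8 summed to 2951 in wildtype pool 2, 1994 to 2149 in the mutant pools, and 3263 and 2762 in wildtype pools 1 and 3. Since ms8 had at most 1.10 normalized counts in any pool, this sum was nearly that of ocl4 alone. The gene ocl4 also counts in the epidermal sum, so the 2 sums are not separate measures. The pollen and sucrose loading markers were at 0 or near it in every pool. The part of tissue make-up in the 241 genes was not tested.

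In the authors' deposited table, 61 of the 241 genes have a fold change but no p-value. Over all genes the table holds 99 such blanks, so these genes are 61.6% of them, while 0.327% of all genes with a fold change have one. Of the 33 genes with a ratio of at least 5, 29 were blank. A further 60 had an adjusted p under 0.05 in the authors' deposited table, all lower in Bif1;Bif4 and none higher. That contrast includes wildtype pool 2, so these calls use the values that chose the genes and say nothing more about them.

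The other 5 pools allow a comparison of genotypes that leaves wildtype pool 2 out. The choice of the genes did not compare the genotypes, but it limited the largest of these 5 values and so left out genes high in a mutant pool. Against the other 2 wildtype pools only, 542 genes met the conditions, and 241 did with the mutant pools included. The shares that fell or rose, and the fold changes of the chosen genes, are therefore not independent of the choice. Limma was fitted to log2(normalized count + 1) of all genes with at least 10 in at least 2 of the 5 pools, and 225 of the 241 genes passed. In Bif1;Bif4, 32 of these 225 fell (14.2%) at an adjusted p under 0.05, beside 2.86% of all 22186 genes tested. Another 11 rose (4.89%), beside 3.49% of all genes, and 182 were not called. The share that fell was above that of all genes, and no test was made of the list. Genes that pass the filter through 1 genotype alone had to differ: 7 of the 225 were under 10 in every mutant pool, of which 4 fell, and 11 were under 10 in both wildtype pools, of which 4 rose. Without them 28 of 207 genes fell (13.5%), beside 2.63% of all 21611 genes left, and 7 rose (3.38%), beside 3.06%.

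The median log2 fold change of the 225 genes was -0.35, beside 0.00 over all genes, with 148 negative and 77 positive. It was also -0.35 with the 1 gene at 0 in all pools of a genotype set at its bound. All mutant pools lay below wildtype pools 1 and 3 for 96 genes (42.7%), beside 19.9% of all genes tested. All lay above for 36 genes (16.0%), beside 18.9% of all genes tested. Without wildtype pool 1 or wildtype pool 3, with 1 wildtype pool left and assumed to vary like the others, 7 genes fell and 5 rose in each case.

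**Figure D5:**
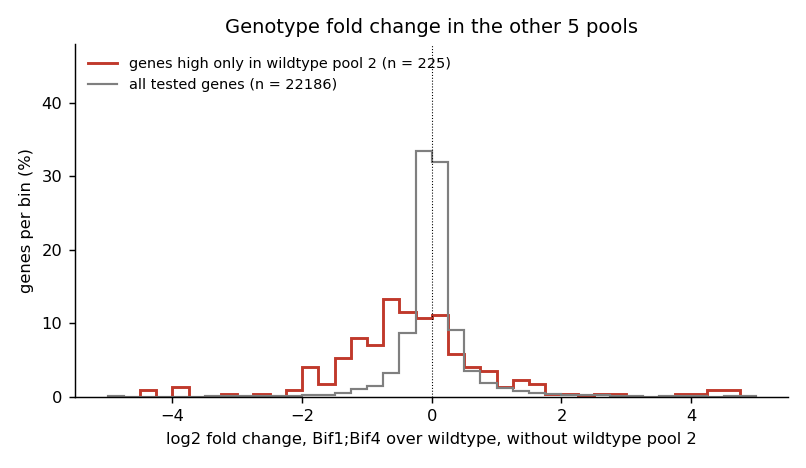
Distribution of the log2 fold change of Bif1;Bif4 over wildtype without wildtype pool 2 (horizontal axis), as a percentage of genes per bin, for the 225 tested genes (red) and all 22186 tested genes (grey). The red outline reaches further to negative values, with a median of -0.35 against 0.00.

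Of the named genes, 10 were called lower and 2 higher in this comparison, and 2 of the 10, bd1 and Cel20, passed the filter only through the wildtype pools. In limma the log2 fold change of mpao1 was -3.93 ± 0.32 (SE), with an adjusted p of 0.00072. That of DL1 was -2.56 ± 0.33 (limma adjusted p = 0.0034). For bd1 and Cel20, whose mutant pools held at most 1 and 4 reads, the call is set in part by that filter and no p is given. For bd1 the mean of wildtype pools 1 and 3, 24.2 normalized counts, was at least 8.13-fold higher than the limit of 3 reads in a Bif1;Bif4 library. Both genes failed the filter on low values when either of these wildtype pools was left out. TIFY15 had a log2 fold change of -1.22 ± 0.17 (limma adjusted p = 0.0055). Over the whole jasmonate and lipoxygenase list, 3 of 37 tested genes rose, 2 fell and 32 were not called. Over the floral and meristem list 9 of 61 rose, 19 fell and 33 were not called. Of all 22186 genes tested, 3.49% rose and 2.86% fell, and no test was made of either list.

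The other falls called by limma were those of EREB93 (log2 fold change -1.82, adjusted p = 0.012), yab9 (-1.98, adjusted p = 0.035), SRS7 (-1.41, adjusted p = 0.018), MYB-IF35 (-0.90, adjusted p = 0.034) and lox1 (-0.67, adjusted p = 0.021). Each of these 5 lost its call when wildtype pool 1 or wildtype pool 3 was left out, and yab9, MYB-IF35 and lox1 also without mutant pool 1. MYB-IF35 lost it without mutant pool 2 as well. The log2 fold change of mpao1, DL1, TIFY15 and pcr1 stayed past the threshold whichever of the 5 pools was left out.

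Of the 2 named genes that rose, pcr1 had a log2 fold change of 2.88 ± 0.34 (limma adjusted p = 0.0026). The lysine breakdown gene lkrsdh1 had 0.63 ± 0.12 (limma adjusted p = 0.024), and lost its call without mutant pool 1, wildtype pool 1 or wildtype pool 3. With all 6 pools the log2 fold change was 1.46 for pcr1 and -0.0037 for lkrsdh1, and limma called neither. DL1 (-3.43), TIFY15 (-1.85), lox1 (-1.45) and MYB-IF35 (-1.33) were not called with all 6 pools either.

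Over the other 5 pools the genes also varied within each genotype. The next highest pool after wildtype pool 2 was wildtype pool 1 for 94 genes, mutant pool 3 for 65, wildtype pool 3 for 48, mutant pool 2 for 20 and mutant pool 1 for 14. Among the mutant pools, pool 3 was the highest for 57.7% of the genes, against 34.1% of all tested genes. Of the other wildtype pools, pool 1 was above pool 3 for 66.4%, against 51.4% of all tested genes. No test was made of these shares.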

How the data were processed

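Messenger RNA was measured in 6 pooled tassel libraries. The submitters' processing notes name TopHat2 2.1.1, Trimmomatic, DESeq2 and HTSeq. Step order, build, annotation and strand setting: not given in the sources used here. The deposited table holds a signal per library, which is a read count over a size factor, beside a log2 fold change, a standard error, a Wald score and a p-value that the authors computed. Dividing each column by its smallest step gave whole reads for 100.0% of values (tolerance 0.001 reads).

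Limma 3.58.1 (trend and robust) was fitted in R 4.3.3 to log2(value + 1), which understates changes of low genes, without wildtype pool 2, two-sided, with Benjamini-Hochberg adjustment over all genes tested. The script was tested on simulated data. On the recovered reads, edgeR 4.0.16 and DESeq2 1.42.0 were alternatives. Summaries used Python 3.11.15.

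Names come from RefSeq genes of Zm-B73-REFERENCE-NAM-5.0, used for names only. Of the 241 genes, 193 matched 1 entry, 4 more than 1 and 44 none. That table gives no product names, so the 29 functional lists were matched by symbol, and 1 list matched no gene. Values of near-identical copies are uncertain, since the handling of shared reads is unknown. The members and lists were chosen with earlier results of these data known. Genes named were the 12 with the highest ratio and the 10 most abundant among named members, up to 4 per list, up to 5 called in each direction, and genes at the thresholds. The others are examples chosen after their values were seen. Promoters and protein sequences were not analysed here.

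Replicate numbers are not stated to pair the libraries and were not used as pairs in the main fit. Deviations from the group means correlated at 0.08, -0.16 and -0.01 for equal numbers, and at -0.31 to 0.24 for different numbers. With so few libraries these values cannot decide whether the numbers pair them.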

Additional observations from a re-analysis of the deposited data

How the results depend on the processing

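The number of genes high only in wildtype pool 2 followed the limits: 556 at a ratio of 1.5, 88 at 3, 49 at 4, and 542 against the other 2 wildtype pools only. The same rule gave 30, 52 and 6 genes in the Bif1;Bif4 pools and 4 and 7 in wildtype pools 1 and 3. Minimums of 20 and 100 gave 360 and 176, unscaled reads 347, RPM values 250 (238 shared) and median-centred values 243. For the genotype comparison, leaving out 1 of the 5 pools gave 256 to 637 risen and 134 to 505 fallen genes, with 5 to 14 risen and 7 to 37 fallen members. Without a wildtype pool the counts were 256 and 339 risen and 134 and 177 fallen genes, and without a mutant pool 522 to 637 and 432 to 505. The cause was not tested. Without genes under 10 in every pool of a genotype, a choice made after seeing the data, 7 members rose and 28 fell. With wildtype pool 2 included, 459 genes and 0 members rose and 642 genes and 20 members fell, and lkrsdh1 reversed to a log2 fold change of -0.0037; the cause was not tested. With edgeR (TMM) 8 members rose and 36 fell, and with DESeq2 13 and 38. With the replicate number as a block, 1065 genes rose and 708 fell, with 15 and 42 members, and all 12 named calls were kept. In that fit mutant pool 2 had no wildtype pool of its number and added nothing to the fold changes. They therefore equalled those without mutant pool 2, such as -2.62 for DL1 in both.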
